A study of Mus musculus with 7 samples.

Results

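The comparison asked which transcripts of scurfy CD4+ T cells changed when the mice also lacked interleukin-2 (IL-2). It rests on 6 of the 7 arrays of the study: 3 of scurfy mice (Sf) and 3 of scurfy mice without IL-2 (Sf.Il2-/-). Scurfy males carry a mutant Foxp3 (B6.Cg-Foxp3sf/J), and both mutant groups share that allele. The Sf.Il2-/- mice have in addition a null Il2 gene (B6.129P2-Il2tm1Hor/J). The seventh array is of wild-type C57BL/6 mice (B6), a pool of lymph nodes from 2 mice. With 1 array it was tested against neither mutant group, and its values stand beside the others for reference only. It did take part in the choice of probe sets and of the genes tested, and in the fit. All mice were males of 3 weeks. Cells came from peripheral lymph nodes, were sorted for CD3 and CD4 after magnetic removal of cells bearing B220, CD8, NK1.1, CD11b or CD11c. The arrays are labelled as biological replicates, and the number of mice behind each mutant array is not given in the sources used here. Il2 was null in every cell of the animal and throughout life, so the effects of a T cell's own IL-2, of the IL-2 of other cells and of the course of disease cannot be told apart.

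Foxp3 is the transcription factor that defines regulatory T cells, and scurfy mice, which lack its function, die early of a lymphoproliferative disease in skin, lung, liver and other organs. IL-2 is made mainly by activated CD4+ T cells. It signals through a receptor whose alpha chain, CD25, is encoded by Il2ra and gives high affinity, and whose beta and common gamma chains carry the signal to JAK kinases and STAT5. STAT5 binds a palindrome of the form TTCNNNGAA and switches on, among others, Il2ra itself and feedback inhibitors such as Cish.

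The Cish promoter is the textbook STAT5 target among the genes that fell here, so its sequence is shown. The stretch is chr9:107296530-107296679 of GRCm38.p6, plus strand, from RefSeq. Capitals mark the matches to TTCNNNGAA, of which the first begins at the annotated transcript start and the second 2 bases after the end of the first.
Cish: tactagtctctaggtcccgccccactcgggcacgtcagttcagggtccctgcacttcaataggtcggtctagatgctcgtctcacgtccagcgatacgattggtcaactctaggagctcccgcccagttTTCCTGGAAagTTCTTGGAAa
The same palindrome, which reads alike on both strands, was searched in windows from 250 bases before to 50 bases after the start of each gene in the RefSeq table. Of the 27 genes that fell, 21 had a window, and 4 of these (19%) held a match: Cish, Fbxo17, Foxp3 and Ifitm3. Among all tested genes with a window the share was 8.43% (785 of 9311). Windows with 2 or more matches were 1 among the genes that fell, that of Cish, and 43 of 9311 (0.462%) among all tested genes. None of the 4 windows of genes that rose held a match. A match is a description of these letters and not a measured binding site.

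Values are log2 of the deposited intensity plus 1, so a difference of 1 is a 2-fold difference. A gene was represented by its brightest probe set that names 1 gene, and 11460 genes with a group mean of at least 5 were tested. The arrays had like median intensities, of 29.3 to 32.4. Their upper quartiles differed more: 116.4, 110.2 and 144.6 in Sf, 115.5, 116.4 and 130.4 in Sf.Il2-/- and 140.9 in B6. Array Sf 3 stood apart from its group: across all tested genes it correlated with Sf.Il2-/- 3 at 0.971, and with Sf 1 and Sf 2 at 0.950 and 0.933. The results below are therefore also given without Sf 3 where it matters. Markers of CD4+ T cells were bright in every array, and the summed intensity of 8 of them was 10664 to 15285 in Sf, 17392 to 18837 in Sf.Il2-/- and 21105 in B6. None of the 36 tested markers passed, of 82 listed and with those of CD4+ T cells included. The defining markers Ms4a1 and Cd79a of B cells and Ncr1 of natural killer cells lay under 5 in every array. Other members of their lists were bright: Ighm of B cells at 9.69 to 11.53 and Nkg7 at 7.77 to 11.25. Csf1r, of the monocyte list, was at 8.36 to 9.49. The B cell marker sums did not overlap, at 981 to 1777 in Sf and 1928 to 2171 in Sf.Il2-/-, and most of each sum was Ighm. Cd79b of the same list went the other way, at 5.30, 5.10 and 5.10 in Sf against 4.06, 3.99 and 4.32 in Sf.Il2-/-. Of the 3 tested B cell markers 1 had a positive and 2 a negative difference. S100a8, a neutrophil gene, was at 6.37 in Sf 1 and 7.63 in Sf.Il2-/- 2 and under 5 in the other mutant arrays.

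The threshold used was a Benjamini-Hochberg adjusted p under 0.05 in limma. In Sf.Il2-/- cells 27 genes fell (0.236% of those tested) and 5 rose (0.0436%), 0.279% in both directions together, with the size of the difference at least 1.24 in each. For all 32 the 3 arrays of one group lay beyond the 3 of the other, as they did for 12.1% of all tested genes (8.39% higher, 3.72% lower). At an unadjusted p under 0.05 in limma, 626 of the 11460 tested genes were higher and 282 lower. A positive difference was seen in 7133 of them. The list counts below are to be read beside these totals. The genes that fell encode the IL-2 receptor alpha chain, feedback inhibitors, regulatory T cell genes, a chemokine receptor, leukotriene receptors, an integrin and Ifitm proteins. Those that rose were Ccl4, Gcg, Stmnd1, Kcna2 and Il1r1. In bulk cells, fewer cells that express a gene and less RNA per cell cannot be told apart. For 12 of the 32 genes the lower group's mean was under 5, near the dim end of these arrays, so their fold sizes are not exact: AA467197, Ccr1, Cysltr1, Foxp3, Gcg, Ifitm1, Il2ra, Klrk1, Ltb4r1, Neb, Socs2 and Stmnd1. The same holds for genes named below that did not pass or passed in the block alone and have a group mean under 5, such as Il13, Csf2, Ccl3, Atf3, Jup, D630045J12Rik and Ret.

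**Figure D1:**
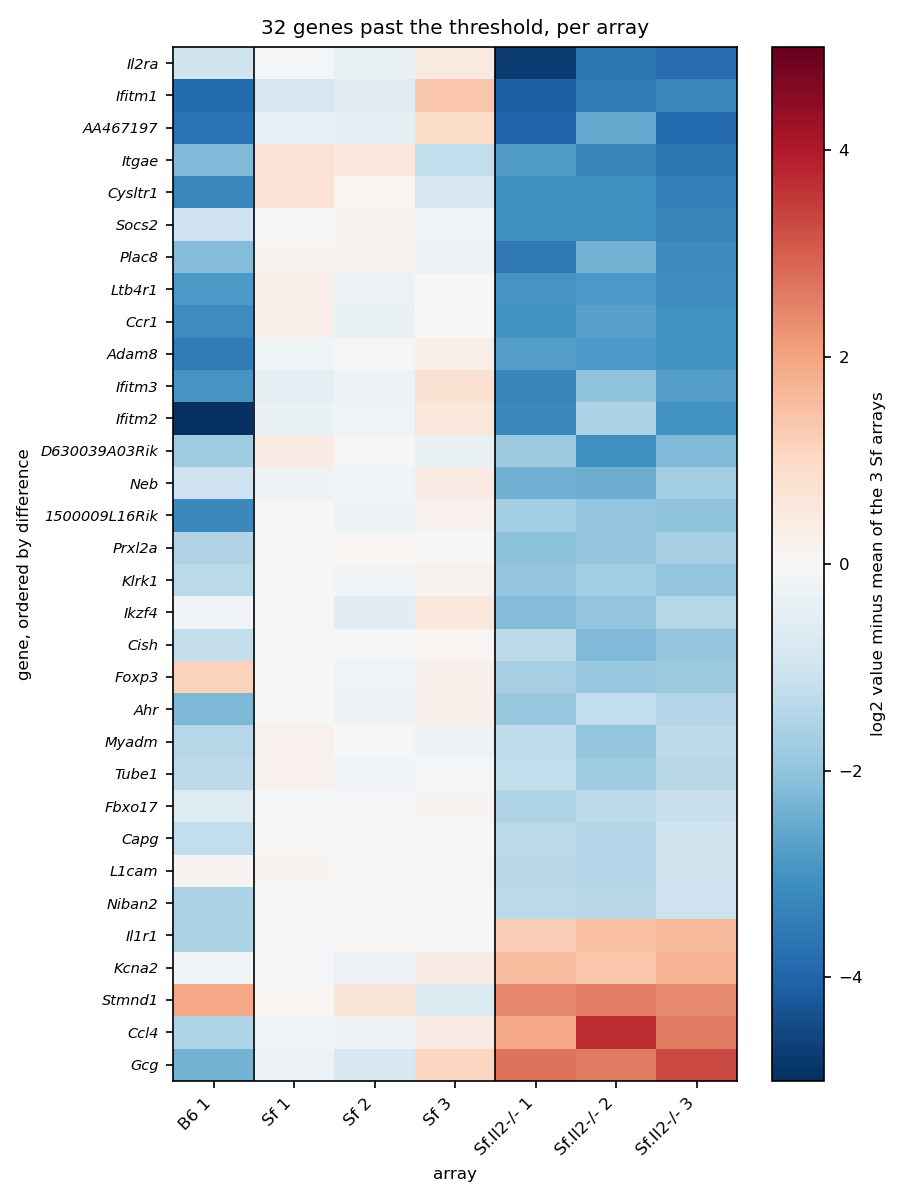
Heat map of the 32 genes past the threshold (rows, ordered by difference) in 7 arrays (columns), coloured by the log2 value minus the mean of the 3 Sf arrays. The 27 upper rows are blue in every Sf.Il2-/- array and the 5 lower rows are red, while the B6 array resembles the Sf.Il2-/- arrays for some genes (Ccr1, Adam8) and the Sf arrays for others (L1cam).

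The number of genes called depended on the arrays used. Without Sf 3, 854 genes passed, 670 higher (5.85% of those tested) and 184 lower (1.61%), and these included all 32. Leaving out any other array gave 8 to 28. Without both arrays numbered 3 the count was 579, with 363 higher and 216 lower, and again held all 32. With the replicate number as a block, which leaves each difference as it is and changes its error, 60 genes passed (0.524%), 15 higher (0.131%) and 45 lower (0.393%), the 32 among them. The block added 28 genes, 10 higher and 18 lower. Up to 12 per direction, by size of difference, are named below as such, some of them with the block's adjusted p.

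**Figure D2:**
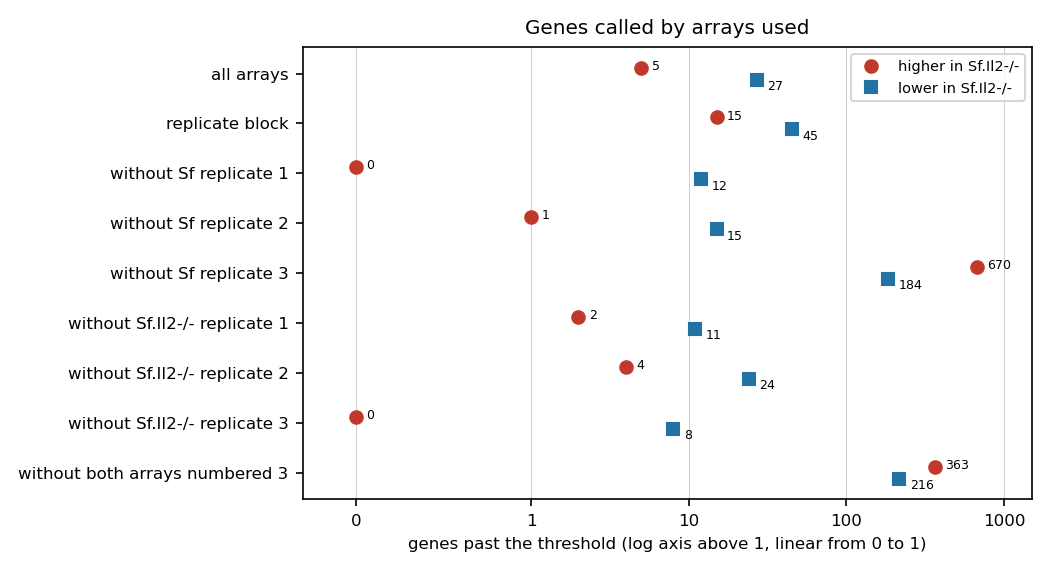
Number of genes past an adjusted p of 0.05 (horizontal axis, logarithmic above 1) when all arrays are used, with a replicate block, and with arrays left out. Red circles are genes higher and blue squares genes lower in Sf.Il2-/-. Leaving out Sf 3 raised the higher calls from 5 to 670 and the lower calls from 27 to 184.

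Il2 itself was not a clean label of the genotype on this array. Its probe set read 5.39, 5.09 and 7.35 in Sf, 7.17, 8.20 and 7.74 in Sf.Il2-/- and 5.22 in B6. The Sf.Il2-/- arrays were not lower, and Sf 3 lay among them. The difference was 1.76 ± 0.53 (SE, n = 3 per group; limma adjusted p = 0.402), and 2.46 without Sf 3 (adjusted p = 0.0059). Whether this probe set lies within the altered part of the allele is not given in the sources used here, so it checks nothing about the labels. Foxp3 transcript, mutant in both groups, was 6.04, 5.87 and 6.32 in Sf against 4.41, 4.20 and 4.24 in Sf.Il2-/-, with B6 at 7.25. It fell by 1.79 ± 0.23 (SE; limma adjusted p = 0.0211).

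Il2ra, the IL-2 receptor alpha chain, was among the largest falls. It read 7.79, 7.55 and 8.36 in Sf, 3.10, 4.29 and 4.11 in Sf.Il2-/- and 6.92 in B6. The Sf.Il2-/- arrays lay below B6 as well as below Sf. The difference was -4.07 ± 0.34 (SE, n = 3 per group; limma adjusted p = 0.00132), and -3.84 without Sf 3. A second Il2ra probe set, 1420691_at, gave -2.19 and did not pass (adjusted p = 0.0712 over all probe sets). Of 8 tested receptor genes of the common gamma chain cytokines, Il2ra was the member that passed. The beta chain gene Il2rb, chosen after its values were seen, read 9.30, 9.14 and 10.43 in Sf against 9.39, 9.78 and 10.20 in Sf.Il2-/-. These groups overlapped (difference 0.16 ± 0.35, adjusted p = 0.959), and the sign turned under quantile normalization. Il4ra, the interleukin-4 receptor chain, was at -0.67 (adjusted p = 0.791).

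Feedback inhibitors of cytokine signalling fell in 2 of 16 tested members, against 0.236% of all tested genes. Socs2, which dampens STAT5 signals, read 7.36, 7.50 and 7.25 in Sf, 4.29, 4.32 and 4.05 in Sf.Il2-/- and 6.32 in B6. Its arrays were tight within each group, and the difference of -3.15 ± 0.20 (SE) had the lowest adjusted p of any gene, 0.000517. A second Socs2 probe set, 1449109_at, gave -4.11 (adjusted p = 0.000526). Cish, the inhibitor whose promoter is shown above, read 10.23, 10.25 and 10.37 in Sf against 8.98, 8.06 and 8.33 in Sf.Il2-/-, with B6 at 9.11. It remained among the brighter genes in every array while falling by 1.82 ± 0.25 (adjusted p = 0.0277). The other 14 members did not pass, and the median over the 16 was 0.12, against 0.08 over all tested genes. None of 10 tested JAK and STAT genes passed in limma (1 at an unadjusted p under 0.05), and their median was 0.27. In the wider list of 33 genes induced by IL-2 or STAT5, Il2ra, Socs2 and Cish fell, no member rose, 13 had a positive difference and the median was -0.17. Without Sf 3 the median was 0.05, with 21 positive, and 4 members were called higher and 5 lower.

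**Figure D3:**
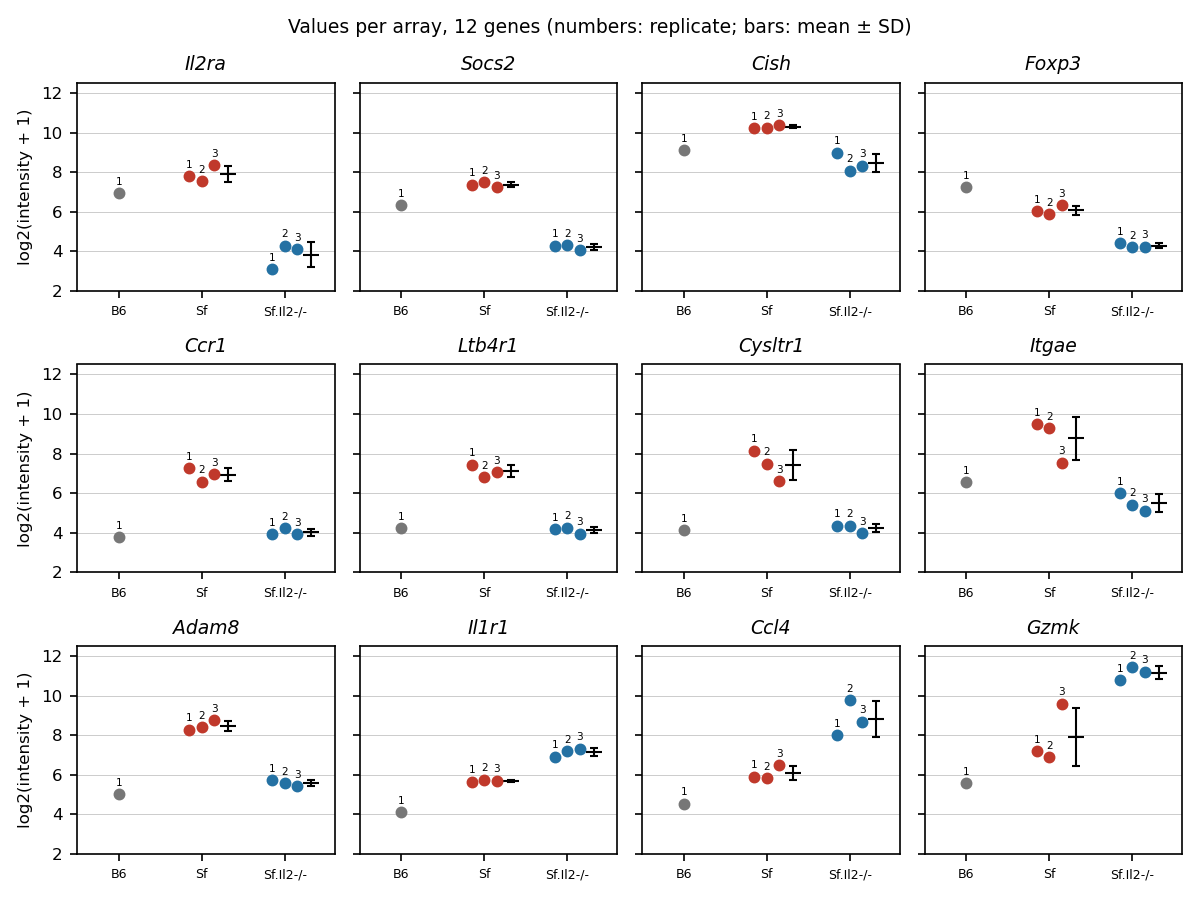
Log2(intensity + 1) of 12 genes in each array (points, numbered by replicate) for B6, Sf and Sf.Il2-/-; bars are mean ± SD of 3 arrays. Il2ra, Socs2, Ccr1, Ltb4r1 and Adam8 separate the groups with little spread, Itgae and Cysltr1 are lower in Sf 3 than in the other Sf arrays, and Gzmk in Sf 3 (9.58) lies nearer to Sf.Il2-/- than in Sf 1 (7.20) and Sf 2 (6.90).

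Genes of the regulatory T cell signature fell in 6 of 22 tested members, against 0.236% of all tested genes. None rose, and the median was -0.43. Without Sf 3, 8 members were called lower and 3 higher (1.61% and 5.85% over all tested genes), and the median was -0.37. With all arrays, those that fell besides Il2ra, Socs2 and Foxp3 were Itgae, Ikzf4 and Capg. Itgae encodes the integrin CD103, which binds E-cadherin on epithelia, and read 9.50, 9.29 and 7.54 in Sf, 5.99, 5.42 and 5.11 in Sf.Il2-/- and 6.56 in B6. Sf 3 was the lowest Sf array yet lay above every Sf.Il2-/- array. The difference was -3.27 ± 0.47 (SE; adjusted p = 0.03), and -3.89 without Sf 3. A second Itgae probe set, 1447541_s_at, gave -3.86 (adjusted p = 0.0337). Ikzf4, the Ikaros family factor Eos that works with Foxp3, read 7.36, 6.85 and 7.88 in Sf against 5.21, 5.40 and 5.95 in Sf.Il2-/-, with B6 at 7.19 (difference -1.85, adjusted p = 0.045). Capg, an actin capping protein, read 9.77, 9.60 and 9.74 in Sf against 8.34, 8.25 and 8.72 in Sf.Il2-/-, with B6 at 8.47 (difference -1.27, adjusted p = 0.045). Swap70, the next member by p, was at -0.70 and did not pass (adjusted p = 0.395). Foxp3 is mutant in both groups, so these values describe the transcripts and not functional regulatory T cells.

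Among receptors that guide cells to inflamed tissue, 1 of 9 tested chemokine receptors fell, against 0.236% of all tested genes. Ccr1, a receptor for CCL3 and CCL5, read 7.26, 6.59 and 6.97 in Sf, 3.92, 4.23 and 3.92 in Sf.Il2-/- and 3.78 in B6. The Sf.Il2-/- arrays were thus near the wild-type value, far below Sf (difference -2.92 ± 0.26, SE; adjusted p = 0.00212). Of the 9 members 4 had a positive and 5 a negative difference, and the median was -0.15, which turned to 0.08 with no filter on brightness. Ccr8, a receptor of Th2 and skin-homing cells, read 7.19, 7.35 and 8.29 in Sf against 5.95, 5.56 and 6.50 in Sf.Il2-/-. Its groups were apart, but the difference of -1.61 passed in the replicate block alone (adjusted p = 0.00794, against 0.146 without the block). Cxcr6, at -1.37, and Ccr2, at -0.86, did not pass (adjusted p = 0.149 and 0.515), nor did Cxcr3, at 1.09 (adjusted p = 0.57).

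Of 14 tested receptors for lipid mediators, 2 leukotriene receptors fell, against 0.236% of all tested genes. Ltb4r1 encodes the receptor for leukotriene B4, a chemoattractant of neutrophils and effector T cells. It read 7.44, 6.82 and 7.08 in Sf, 4.17, 4.26 and 3.96 in Sf.Il2-/- and 4.24 in B6, a difference of -2.98 ± 0.25 (SE; adjusted p = 0.00132). Cysltr1, the receptor for leukotriene D4, read 8.14, 7.50 and 6.61 in Sf, 4.36, 4.36 and 3.98 in Sf.Il2-/- and 4.14 in B6, a difference of -3.18 ± 0.36 (adjusted p = 0.00863). A second Cysltr1 probe set, 1449282_at, gave -4.63 (adjusted p = 0.00269). For both genes the Sf.Il2-/- arrays lay beside the B6 array. Ptgir, the prostacyclin receptor, read 7.49, 6.77 and 6.51 in Sf against 5.74, 4.67 and 5.57 in Sf.Il2-/-, and its difference of -1.59 passed in the block alone (adjusted p = 0.0318, against 0.155). The 14 members had a median of -0.11, and the other 12 did not pass.

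Among surface proteases and adhesion molecules the changes were again few. Adam8, a metalloprotease that sheds adhesion molecules, read 8.27, 8.40 and 8.76 in Sf, 5.73, 5.59 and 5.43 in Sf.Il2-/- and 5.0 in B6. No array of either group came near the other, and the difference was -2.89 ± 0.21 (SE; adjusted p = 0.000587). The other 8 tested ADAM genes and inhibitors did not pass. Of 18 integrins and adhesion molecules Itgae fell and no other member passed; Itga6 was at -0.91 (adjusted p = 0.333). L1cam, an adhesion molecule of the immunoglobulin family, fell from 7.86, 7.64 and 7.72 to 6.37, 6.28 and 6.76, below the B6 array at 7.89 (difference -1.27, adjusted p = 0.045). None of 10 tested selectin ligand glycosyltransferases passed in limma (2 at an unadjusted p under 0.05).

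Ifitm proteins, small membrane proteins known for blocking virus entry, fell in 3 of 5 tested members, against 0.236% of all tested genes. Ifitm1 read 7.24, 7.58 and 9.47 in Sf against 4.03, 4.61 and 4.82 in Sf.Il2-/-, with B6 at 4.27, a difference of -3.61 ± 0.51 (SE; adjusted p = 0.0277). Ifitm2 read 9.86, 9.98 and 10.74 in Sf against 6.99, 8.59 and 7.15 in Sf.Il2-/-, with B6 at 4.96, a difference of -2.62 (adjusted p = 0.045). Ifitm3 read 8.62, 8.82 and 9.83 in Sf against 5.80, 7.09 and 6.36 in Sf.Il2-/-, with B6 at 6.13, a difference of -2.68 (adjusted p = 0.03). In each of the 3, Sf 3 was the highest array. Sf.Il2-/- 2 was the highest Sf.Il2-/- array for Ifitm2 and Ifitm3. Near-identical sequences among Ifitm genes can share probes, so the members are not fully separate readings. Ifitm6, a dim member, was at -0.55 (adjusted p = 0.672).

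Interferon response genes outside that family lay on the other side of 0. All 30 tested members had a positive difference (27 under quantile normalization), with a median of 0.57, and none passed in limma without a block (10 at an unadjusted p under 0.05). Of all 11460 tested genes, 7133 had a positive difference and 626 were higher at that p. Oas1a, a sensor of double-stranded RNA, read 5.85, 5.70 and 6.14 in Sf against 7.26, 6.51 and 7.20 in Sf.Il2-/-, and its difference of 1.10 passed in the block alone (adjusted p = 0.044, against 0.197). The list's median was 0.88, 0.46 and 0.16 in the pairs of arrays numbered 1, 2 and 3, and 0.39 under quantile normalization. Its mean level was 8.07. Of all tested genes at a level of 8 to 9, 72% had a positive difference, with a median of 0.12. Without Sf 3, 14 of the 30 rose, against 5.85% of all tested genes.

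Th2 genes had lower values in 11 of 12 tested members, with a median of -1.30, and none passed without the block. Il13, the cytokine that drives mucus and airway reactivity, read 7.37, 5.42 and 8.02 in Sf, 2.55, 1.65 and 3.97 in Sf.Il2-/- and 1.94 in B6. The groups were apart, but the Sf arrays spread over more than 2 units. Since the Sf.Il2-/- values lie near the dim end, the size of the difference, -4.21 ± 0.73 (SE), is not exact; its adjusted p was 0.0648, and 0.00186 in the block. Csf2, which encodes GM-CSF, read 4.72, 5.54 and 6.73 in Sf against 2.78, 2.56 and 2.12 in Sf.Il2-/- (difference -3.18, near the dim end too, adjusted p = 0.0547, and 0.0489 in the block). Ecm1, which Th2 cells use to leave lymph nodes, read 7.74, 7.70 and 8.33 in Sf against 6.09, 6.36 and 6.86 in Sf.Il2-/- (difference -1.49, adjusted p = 0.0665, and 0.00726 in the block). With Ccr8, 4 members were called lower in the block and 6 without Sf 3, against 0.393% and 1.61% of all tested genes. The median was -1.17, -1.63 and -0.97 in the pairs numbered 1, 2 and 3, so the list was lower in each. At an unadjusted p under 0.05, 8 members were lower and 1 higher, against 282 and 626 of all 11460 tested genes.

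The aryl hydrocarbon receptor fell, while its list was mixed. Ahr, a ligand-activated transcription factor of helper T cells, fell from 8.73, 8.47 and 8.98 to 6.85, 7.50 and 7.25, with B6 at 6.49 (difference -1.53 ± 0.24, SE; adjusted p = 0.0436). Of the 8 tested Th17 genes, Ahr fell, Il1r1 rose, 6 had a positive difference and the median was 0.54. The 16 tested S100, annexin and galectin genes were mixed as well, with 10 positive, a median of 0.06 and no call without the block (1 higher and 4 lower at an unadjusted p under 0.05 in limma). The 3 members with the lowest p were all lower. Lgals3, encoding galectin-3, read 10.33, 10.01 and 9.96 in Sf against 8.98, 8.49 and 8.01 in Sf.Il2-/-, with B6 at 6.13 (difference -1.61, adjusted p = 0.0521, and 0.00963 in the block). Anxa1, a lipid-binding regulator of inflammation, was at -1.89 and Lgals1, galectin-1, at -0.55, and neither passed (adjusted p = 0.155 and 0.175). Of 25 activated and effector memory genes Il2ra fell, Lgals3 was added by the block, and the median was -0.21. Without Sf 3 that median was 0.01, with 13 positive, and 2 members were called higher and 5 lower. Atf3, a stress-induced factor, was at -2.13 (adjusted p = 0.149), and none of 19 immediate early genes passed in limma (2 at an unadjusted p under 0.05).

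Of 6 tested chemokine genes 3 had a positive and 3 a negative difference, and 1 passed. Ccl4, a chemokine that draws T cells and monocytes, read 5.91, 5.83 and 6.49 in Sf, 7.99, 9.77 and 8.67 in Sf.Il2-/- and 4.53 in B6. It rose by 2.74 ± 0.40 (SE; adjusted p = 0.0322). Ccl5, a ligand of CCR1, read 8.33, 7.89 and 10.52 in Sf against 11.81, 12.58 and 12.55 in Sf.Il2-/-. Sf 3 lay between the other Sf arrays and the Sf.Il2-/- arrays. The difference of 3.40 had an adjusted p of 0.0547, which was 0.0141 in the block, and it was 4.20 without Sf 3 (adjusted p = 0.000158). Ccl3 read 2.69, 3.00 and 5.48 in Sf against 5.31, 8.32 and 7.33 in Sf.Il2-/-, where the groups overlapped (difference 3.26, adjusted p = 0.31). Ccl1, the ligand of CCR8, was among the negative members at 7.29, 6.34 and 7.72 in Sf against 5.49, 5.01 and 4.80 in Sf.Il2-/- (difference -2.02, adjusted p = 0.0665, and 0.0318 in the block).

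Cytotoxic granule genes had a median of 0.61 over 14 tested members, and none passed without the block (5 higher and 1 lower at an unadjusted p under 0.05). Gzmk, granzyme K, read 7.20, 6.90 and 9.58 in Sf, 10.79, 11.44 and 11.20 in Sf.Il2-/- and 5.56 in B6. Its pattern was that of Ccl5, with Sf 3 between the rest (difference 3.25, adjusted p = 0.0769, 0.0296 in the block and 0.00013 without Sf 3). Prf1, perforin, read 6.33, 6.11 and 6.65 in Sf against 6.94, 8.25 and 8.15 in Sf.Il2-/- (difference 1.42, adjusted p = 0.235). Eomes, a T-box factor of cytotoxic cells, read 7.95, 7.29 and 8.46 in Sf against 8.82, 9.66 and 9.90 in Sf.Il2-/- (difference 1.56, adjusted p = 0.197). Cxcr3, a Th1 chemokine receptor, was at 1.09 (adjusted p = 0.57), and none of 12 Th1 genes passed in limma (2 at an unadjusted p under 0.05). The summed intensity of the natural killer cell markers was 677 to 1612 in Sf and 1510 to 2593 in Sf.Il2-/-, most of it Nkg7, a granule gene, while Ncr1 stayed under 5. For the CD8 T cell markers the sums were 415 to 1057 and 671 to 1323, with Cd8a at 5.50 to 6.54 in Sf and 6.13 to 6.24 in Sf.Il2-/-. Eomes is itself one of these markers and makes up much of the sums. Of the 5 tested CD8 markers 2 had a positive difference, Eomes among them, and 3 a negative one. The part of these markers in the chemokine and granule values was not tested.

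Klrk1, which encodes the activating receptor NKG2D, read 5.96, 5.84 and 6.18 in Sf, 4.04, 4.29 and 4.0 in Sf.Il2-/- and 4.66 in B6, a difference of -1.88 ± 0.25 (SE; adjusted p = 0.0277). The other 5 tested killer lectin-like receptors did not pass.

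The remaining genes that rose have varied roles. Il1r1, the signalling receptor of interleukin-1, read 5.65, 5.74 and 5.69 in Sf, 6.91, 7.19 and 7.31 in Sf.Il2-/- and 4.11 in B6. The Sf arrays lay within 0.1 of each other, and the rise was 1.44 ± 0.20 (SE; adjusted p = 0.0277). No other of 13 IL-1 and IL-18 receptor family genes passed. Kcna2, a voltage-gated potassium channel, read 5.05, 4.86 and 5.49 in Sf against 6.72, 6.51 and 6.87 in Sf.Il2-/-, with B6 at 5.01 (difference 1.57, adjusted p = 0.0378). It lies, like Il2, on chromosome 3, which held 4.92% of the tested genes and this 1 called gene. Gcg, the proglucagon gene, read 3.94, 3.40 and 5.31 in Sf against 6.95, 6.82 and 7.50 in Sf.Il2-/-, with B6 at 1.87 (difference 2.87, adjusted p = 0.045). Stmnd1 read 3.74, 4.23 and 2.95 in Sf against 6.06, 6.21 and 5.99 in Sf.Il2-/-, with B6 at 5.56 (difference 2.45, adjusted p = 0.0277). For Stmnd1 the Sf arrays were the ones apart from wild type.

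T follicular helper genes had higher values in 13 of 14 tested members, with a median of 0.69, and none passed without the block (11 higher at an unadjusted p under 0.05). Of all 11460 tested genes, 7133 had a positive difference and 626 were higher at that p. Pdcd1, the inhibitory receptor PD-1, read 8.43, 7.71 and 8.45 in Sf, 9.71, 9.53 and 9.32 in Sf.Il2-/- and 6.27 in B6 (difference 1.32, adjusted p = 0.0977, and 0.0459 in the block). Cxcr5, the receptor that brings T cells to B cell follicles, read 7.65, 6.77 and 8.52 in Sf against 9.52, 9.94 and 9.52 in Sf.Il2-/- (difference 2.02, adjusted p = 0.099, and 0.0636 in the block). Sh2d1a, the SLAM adaptor SAP, read 8.84, 8.45 and 9.21 in Sf against 9.87, 9.83 and 10.18 in Sf.Il2-/- (difference 1.13, adjusted p = 0.149, and 0.0385 in the block). For 8 of the 14 the Sf.Il2-/- arrays all lay above the Sf arrays, as they did for 8.39% of all tested genes. The list's median was 0.82, 0.88 and 0.65 in the 3 pairs and 0.50 under quantile normalization. Its mean level was 9.11. Of all tested genes at a level of 9 to 10, 86.6% had a positive difference, with a median of 0.23. Without Sf 3, 9 members were called higher, against 5.85% of all tested genes. The B cell markers summed to 981 to 1777 in Sf and 1928 to 2171 in Sf.Il2-/-, most of it from Ighm, while Cd79b was lower in Sf.Il2-/-. The part of these markers in the follicular helper values was not tested. Of 13 tested inhibitory receptor and exhaustion genes 6 had a positive and 7 a negative difference, with a median of -0.08 (0.17 without Sf 3), and none passed without the block (4 higher at an unadjusted p under 0.05 in limma). Cd160, the member with the lowest p, read 6.21, 5.86 and 6.72 in Sf against 7.89, 7.77 and 7.32 in Sf.Il2-/- (difference 1.40, adjusted p = 0.0934).

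Of the 32 genes, 13 belong to none of the lists. Plac8, expressed in activated lymphocytes, fell from 9.74, 9.74 and 9.31 to 6.00, 7.21 and 6.41, with B6 at 7.44 (difference -3.05 ± 0.31, SE; adjusted p = 0.00449). AA467197 fell from 6.40, 6.35 and 7.72 to 2.85, 4.25 and 2.94 (difference -3.48, adjusted p = 0.0277). The difference was -2.37 for D630039A03Rik, -2.18 for Neb, the muscle protein nebulin, and -1.90 for 1500009L16Rik. It was -1.89 for Prxl2a, a peroxiredoxin-like protein, -1.53 for Myadm, a membrane protein named for myeloid differentiation, and -1.46 for Tube1, epsilon tubulin. Fbxo17, an F-box protein, was at -1.32 and Niban2 at -1.24. In 15 of the 32 genes another probe set names the gene. Of these 24 probe sets 16, in 12 genes, passed the brightness filter, and all 16 had the sign of the chosen probe set. Those of Capg, Cysltr1, Itgae and Prxl2a and 1449109_at of Socs2 also passed the threshold, and the rest did not. Among the rest were L1cam at -0.11, Kcna2 at 0.64 and 0.59, Ahr at -0.90 and Ikzf4 at -0.93. Below the filter, probe sets of Il1r1 (-0.88), Kcna2 (-0.28) and Ikzf4 (0.19) had the other sign.

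The replicate block added further genes in no list. Esm1, endocan, read 5.0, 4.94 and 7.49 in Sf against 7.91, 10.11 and 9.30 in Sf.Il2-/-, with B6 at 2.32 (difference 3.30, block adjusted p = 0.0451). Cd68, a lysosomal gene high in macrophages, read 4.73, 4.77 and 5.32 in Sf against 6.20, 6.33 and 6.74 in Sf.Il2-/- (difference 1.49, block adjusted p = 0.012). The summed monocyte and macrophage markers were 616 to 912 in Sf and 579 to 1182 in Sf.Il2-/-, and their part in Cd68 was not tested. Ret, a receptor tyrosine kinase, was at 1.62, Tmem176b at 1.30 and Kctd15 at 1.29. Jup, plakoglobin, was at -2.82, D630045J12Rik at -2.37, Tafa3 at -1.63, She at -1.50 and Dusp16, a phosphatase of JNK, at -1.38. D630045J12Rik overlapped between groups, at 7.89, 7.12 and 4.83 in Sf against 5.29, 4.46 and 2.98 in Sf.Il2-/-.

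MHC class II genes, which mark antigen-presenting cells and are low in mouse T cells, had lower values in 7 of 8 tested members, with a median of -0.87, and none passed in limma (4 lower at an unadjusted p under 0.05). H2-Ab1 read 7.55, 6.87 and 7.56 in Sf, 5.27, 7.15 and 5.49 in Sf.Il2-/- and 4.54 in B6. H2-Eb1 read 7.77, 6.79 and 6.89 in Sf against 3.91, 6.92 and 4.22 in Sf.Il2-/-. For both, Sf.Il2-/- 2 lay among the Sf arrays, and the same array had the highest S100a8 and, at 7.02, the highest Lyz2, a myeloid gene. H2-DMa, a peptide loader, was 9.86, 9.76 and 9.49 in Sf against 8.65, 7.93 and 8.93 in Sf.Il2-/- (difference -1.20, adjusted p = 0.197). The summed dendritic cell markers were 262 to 337 in Sf and 159 to 314 in Sf.Il2-/-. H2-Ab1 is itself one of these markers, so the sums are not separate from the class II values. The part of dendritic cells in these values was not tested.

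**Figure D4:**
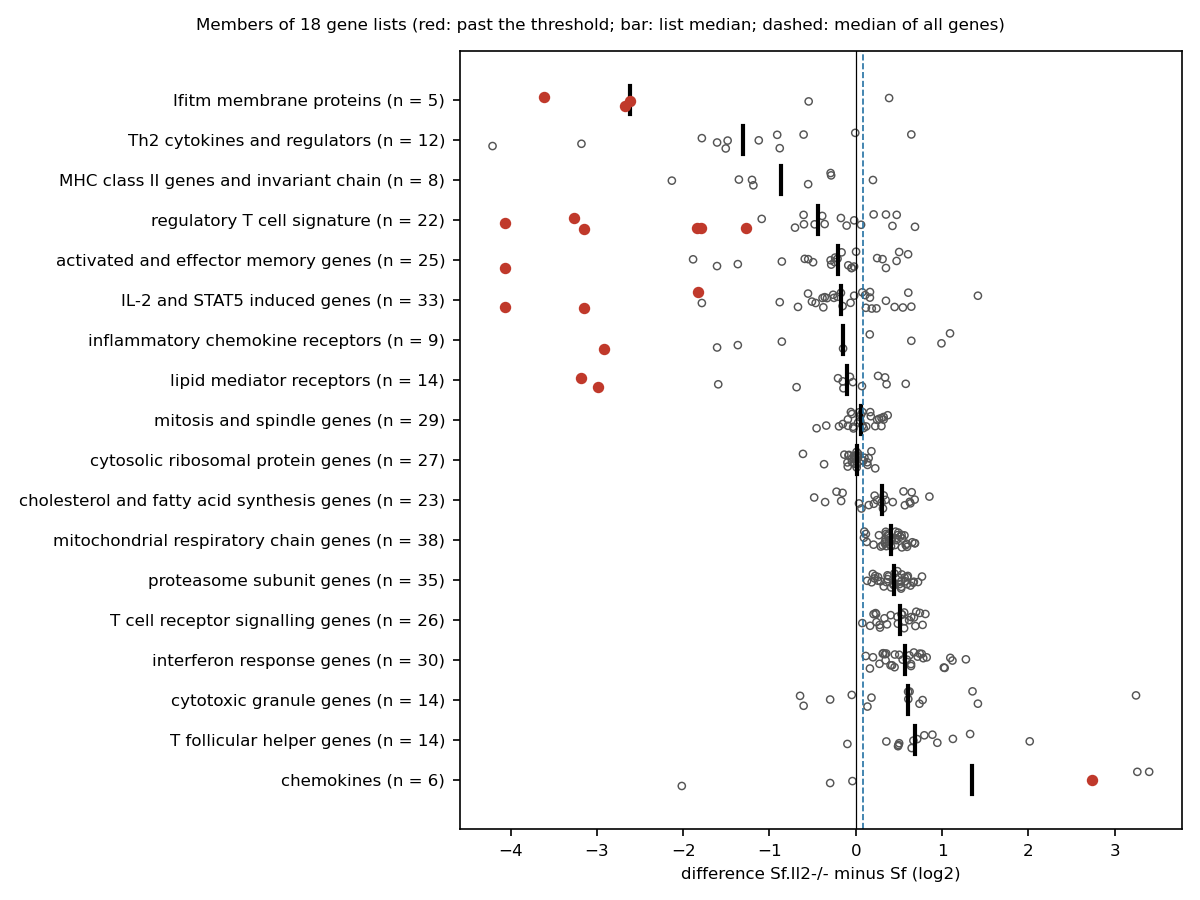
Differences (Sf.Il2-/- minus Sf, log2, horizontal axis) of the tested members of 18 gene lists; red points passed the threshold, open points did not, black bars are list medians and the dashed line is the median of all tested genes (0.08). The Ifitm, Th2 and MHC class II medians lie left of 0, the follicular helper and chemokine medians right of it, while the mitosis and ribosomal medians are at 0.06 and 0.01.

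Several lists of bright housekeeping and T cell genes were shifted upward by small amounts in nearly every member, with none past the threshold. All 26 tested T cell receptor signalling genes had a positive difference, with a median of 0.51 and 14 at an unadjusted p under 0.05. Of all 11460 tested genes, 7133 had a positive difference and 626 were higher at that p. Cd247, the zeta chain of the receptor complex, read 10.13, 9.96 and 10.46 in Sf, 10.96, 11.07 and 10.94 in Sf.Il2-/- and 11.26 in B6 (difference 0.81, adjusted p = 0.158). Cd5, a brake on receptor signalling, was at 0.77 and Cd3g, a CD3 chain, at 0.49 (adjusted p = 0.395 and 0.383). All 38 respiratory chain genes were positive too, with a median of 0.41 and 18 at an unadjusted p under 0.05, as were all 35 proteasome subunits, with a median of 0.45 and 17. Cox6b1, a subunit of cytochrome oxidase, was at 0.65 (adjusted p = 0.376), and Psmb5, a catalytic proteasome subunit, at 0.77 (adjusted p = 0.391). The 8 Gimap GTPases of lymphocyte survival had a median of 0.53.

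These shifts moved with brightness and with the array pair. Over all tested genes the median difference was -0.03 for genes with a mean level of 5 to 6, 0.12 at 8 to 9 and 0.39 at 10 to 11, where 94.6% of 626 genes were positive. It was lower again, at 0.24, for the 273 genes above 11, of which 83.5% were positive. In the pair numbered 3 the median at 10 to 11 was 0.06, against 0.49 and 0.63 in the others. The pairs gave 0.47, 0.67 and 0.17 for the T cell receptor list, 0.51, 0.64 and 0.14 for the respiratory chain and 0.60, 0.69 and 0.06 for the proteasome. Under quantile normalization the medians were 0.22, 0.10 and 0.13, with 23 of 26, 29 of 38 and 29 of 35 members positive. Without Sf 3, 13, 19 and 17 of their members were called higher, against 5.85% of all tested genes.

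**Figure D5:**
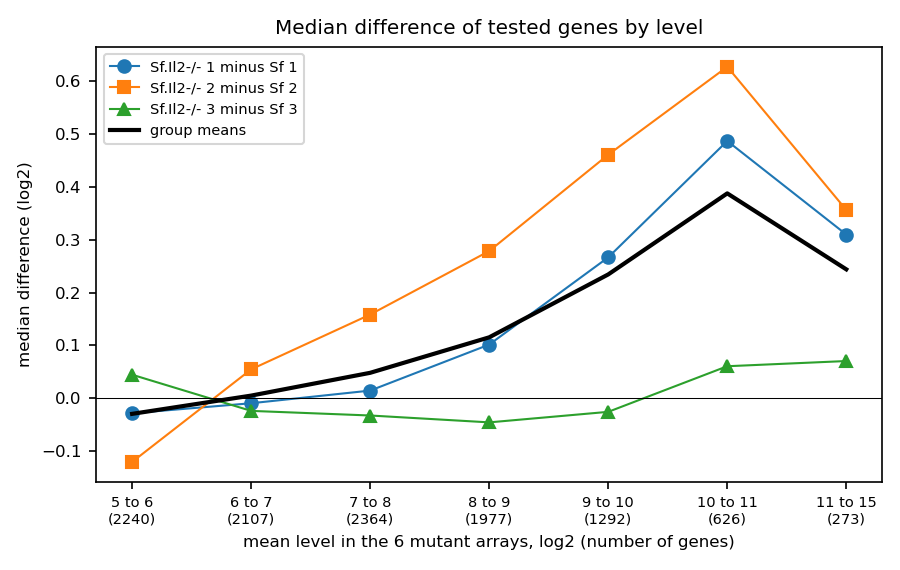
Median difference (Sf.Il2-/- minus Sf, log2, vertical axis) of tested genes by mean level in the 6 mutant arrays (horizontal axis, with the number of genes); coloured lines are the pairs of arrays with the same number and the black line the group means. The pairs numbered 1 and 2 rise to 0.49 and 0.63 at a level of 10 to 11, and the pair numbered 3 stays between -0.05 and 0.07.

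Genes of growth and division showed no call. None of 34 DNA replication genes and 29 mitosis genes passed in limma (1 and 0 at an unadjusted p under 0.05), with medians of 0.13 and 0.06. Their pairs disagreed: the mitosis list was at 0.68, 0.26 and -0.74 and the replication list at 0.55, 0.23 and -0.45. Without Sf 3 the medians were 0.42 and 0.43. Of 22 genes of G1 cyclins, Myc and Pim kinases none passed in limma (1 higher and 3 lower at an unadjusted p under 0.05). Cdkn1a, the inhibitor p21, read 7.31, 7.16 and 7.49 in Sf against 5.99, 6.54 and 6.23 in Sf.Il2-/- (difference -1.07, adjusted p = 0.122). The 20 glycolysis genes and the 27 ribosomal protein genes held no call in limma (0 at an unadjusted p under 0.05 in either list), with medians of 0.04 and 0.01. The 25 folding and stress genes of the endoplasmic reticulum had a median of 0.09 and the 13 amino acid transporter genes one of 0.04, again with no call (4 and 1 at an unadjusted p under 0.05). Quantile normalization turned the medians of the mitosis, glycolysis, ribosomal and amino acid transporter lists below 0. Cholesterol and fatty acid synthesis genes had a median of 0.30, and 6 of 23 were higher at an unadjusted p under 0.05. Cyp51, a sterol demethylase, read 7.03, 6.53 and 7.06 in Sf against 7.72, 7.72 and 7.73 in Sf.Il2-/- (difference 0.85, adjusted p = 0.252). In death receptor and BCL-2 family genes none of 17 and 15 passed in limma (3 and 0 at an unadjusted p under 0.05), with medians of 0.29 and 0.12. With 3 arrays per group and this spread, a gene that did not pass is not shown to be unaffected by the loss of IL-2.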

How the data were processed

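RNA of sorted CD4+ T cells was hybridised to Affymetrix arrays, 1 per sample. The deposited value table holds linear intensity values of 45037 probe sets; the submitters' processing notes name GCRMA and GCOS, and their order and settings are not given in the sources used here. From these, log2(intensity + 1) was computed. The platform annotation pairs 34945 probe sets with 1 gene symbol, 932 with several and 9160 with none; 34741 of the first were carried to current RefSeq symbols. The brightest probe set on average represented each of 18193 genes, and 11460 genes with at least 1 group mean of 5 or more were tested. limma 3.58.1 in R 4.3.3 fitted 3 group means over the 7 arrays (eBayes with an intensity trend, Benjamini-Hochberg adjustment over all tested genes), after being tested on simulated data. Summaries and figures used Python 3.11.15 and matplotlib 3.10.9. The number of arrays limits the precision.

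Gene lists were described by counts and medians, without a list test. The members, lists and tests were chosen with earlier results of these data known. The text names Il2, Foxp3 and Il2ra, every gene past the threshold, per list up to 3 of the members that did not pass with the lowest p, genes that passed with the replicate block alone (up to 12 per direction by size) and further probe sets of named genes; Il2rb was added after its values were seen. The labels number the replicates of both groups without saying what a number shares. Deviations from the group mean correlated at 0.301, 0.211 and 0.505 between arrays of the same number, so the numbers were taken to pair the arrays and the block is given where it changes a call. Sf 2 correlated more with Sf.Il2-/- 1 (0.333). The pairing was thus chosen from the same values that the block tests, so the block's adjusted p-values do not stand apart from that choice. Genes on the lists with no probe set naming them alone were not analysed here.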

Additional observations from a re-analysis of the deposited data

Results flagged for a closer look

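Among 3818 probe sets that pass the brightness filter but name no gene or several genes in the array annotation, 4 passed an adjusted p of 0.05 when every probe set was tested on its own (limma, 24435 probe sets). All 4 are without a symbol and fell in Sf.Il2-/-. Probe set 1425145_at read 9.70, 8.99 and 8.79 in Sf, 5.29, 5.45 and 5.62 in Sf.Il2-/- and 5.67 in B6, a difference of -3.71 ± 0.26 (SE; limma adjusted p = 0.00111). Probe set 1425469_a_at read 6.93, 7.23 and 6.95 in Sf against 4.40, 4.53 and 4.25 in Sf.Il2-/-, with B6 at 6.42 (difference -2.64, adjusted p = 0.00157). Probe set 1425470_at had a difference of -3.79 (adjusted p = 0.0468) and 1425471_x_at one of -3.60 (adjusted p = 0.0283); in both, Sf.Il2-/- 2 was the highest array of its group, at 6.05 and 6.07. They were not named here.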

How the results depend on the processing

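The counts of 32 genes past the threshold, 5 higher and 27 lower, varied with the arrays used and the filter. Leaving out 1 array at a time gave 8 to 854 in all, 0 to 670 higher and 8 to 184 lower. The 0 came without Sf 1 and without Sf.Il2-/- 3 (258 and 342 higher genes at an unadjusted p under 0.05 in limma), and the highest counts without Sf 3. With the replicate block the counts were 60, 15 and 45. Without both arrays numbered 3, a setting chosen after seeing the data, they were 579, 363 and 216. With no filter on brightness they were 11, 0 and 11 (736 higher genes at an unadjusted p under 0.05). The higher count was 3 with the filter at 6, 2 when a gene's probe sets were averaged and 2 with every probe set on its own. Across 17 settings, 5 of the 32 genes passed in each: Adam8, Ccr1, Il2ra, Ltb4r1 and Plac8. Of the 81 genes followed through the settings, none turned its sign apart from Il2rb. Il2rb was at -0.086 under quantile normalization, -0.077 without Sf 2 and -0.040 without Sf.Il2-/- 3 (0.57 without Sf 3). The cell type markers Cd8a, Csf1r and S100a8, given above for their levels, were not among the 81. Over all tested genes the median difference was 0.08, 0.17 with arrays centred on their medians, 0.03 under quantile normalization and 0.20 without Sf 3. The cause of these changes was not tested.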

Other observations

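A few values on lists not described above complete the picture. Of 20 tested NF-kappaB pathway genes none passed in limma (0 at an unadjusted p under 0.05), and the median was 0.14 (-0.003 under quantile normalization). Costimulatory TNF receptor family genes had a median of 0.21 over 18 members, 4 of them higher at an unadjusted p under 0.05. Genes of naive and quiescent T cells were at 0.12 over 19 members, with 4 higher at that level. TGF-beta receptor and SMAD genes had a median of -0.08 over 19, and purine and adenosine genes 0.09 over 14. Actin and migration genes, with Capg as the 1 member that fell, were at 0.32 over 33 (0.06 under quantile normalization). Their mean level was 10.4, and the median of all tested genes at a level of 10 to 11 was 0.39.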
